A study of Saccharomyces cerevisiae YPS1009 with 18 samples.

Results

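The citric acid cycle enzymes of the mitochondrial matrix were followed here as genes carried on plasmids. Genes were chosen by name, as the usual or only mitochondrial enzyme, or a subunit of it, for a step of the cycle. They are aconitase ACO1, both subunits of the NAD-dependent isocitrate dehydrogenase IDH1 and IDH2, the 2-oxoglutarate dehydrogenase subunits KGD1, KGD2 and LPD1, both succinyl-CoA ligase subunits LSC1 and LSC2, fumarase FUM1 and malate dehydrogenase MDH1. Of these 10 genes, 9 had a row among the 4872 plasmid rows of the screen, 7 were abundant enough to be tested among 4508 plasmids, and KGD1 was not analysed here.

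The citric acid cycle oxidises the acetyl group of acetyl-CoA to carbon dioxide and passes the electrons to the respiratory chain. Budding yeast needs it for growth on nonfermentable carbon such as ethanol and acetate, and glucose represses many of its genes. After glucose has run out, yeast in rich medium shifts to respiration before it stops dividing, so the cycle is in use on the way into stationary phase.

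The screen asked which extra genes change the survival of cells with an extra chromosome in long culture. It used the MoBY library of low-copy centromeric plasmids, each with 1 yeast gene, the DNA on either side of it and an identifying barcode. The library was put into 2 haploid MATa strains of the oak-soil isolate YPS1009 background with a deletion at ho. AGY1612 carries a duplication of chromosome XII (YPS1009_Chr12) whose copies bear His3MX6 and NatMX marks at an intergenic site, together with a deletion at his3. AGY1611 is the euploid strain, with a NatMX mark at the same chromosome XII site. Each genotype was represented by 1 strain, and the 3 replicates per group came from 2 transformations of the library, so some replicates share a transformation.

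All groups carried the library and were kept in YPD with G418, the drug that selects for the plasmids. T0 libraries were the cells of the thawed frozen stock left after inoculation. Day 1 and day 28 libraries were the lawns that grew after cells of each culture were spread on YPD with G418, so these barcodes count plasmids in cells that could still divide, not the level of a transcript or protein. Fewer cells with a plasmid and fewer plasmid copies per cell cannot be told apart in these counts. Groups had 3 libraries each, giving 18 in all. Libraries held 3491412 to 6298768 counts at T0, 904993 to 1925967 at day 1 and 503569 to 1338206 at day 28. Abundance is given as CPM, barcode counts scaled to a library of 1000000 with TMM factors. Calls were made at FDR < 0.1 in edgeR's quasi-likelihood test with Benjamini-Hochberg adjustment over the 4508 plasmids, and an error after a log2(fold change) is its SE. Each plasmid had 1 estimate of spread, shared by all 18 libraries. The SE therefore does not measure the spread of the cultures compared. Barcodes were amplified over 20 PCR cycles without molecular identifiers, so the floor of 3 counts used below covers counting error only.

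Extra copies of most of these enzymes gave no change past the threshold by day 28. In AGY1612, 0 of the 7 tested members were called at day 28 over T0, where 6.99% of all tested plasmids were called higher and 12.9% lower. In AGY1611, LSC2 and MDH1 fell and none rose, where 5.12% of all tested plasmids were called higher and 9.49% lower. FUM1, too rare at T0 to be tested, had 0 counts in all 6 day 28 libraries, as did 4.85% of plasmids with a count. LPD1 was above every T0 library of its own strain in all 3 AGY1611 cultures at day 28, as were 19.6% of plasmids, but missed the threshold. No member was called for a difference between the strains, where 0.266% of all tested plasmids were called for the day 28 change.

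**Figure D1:**
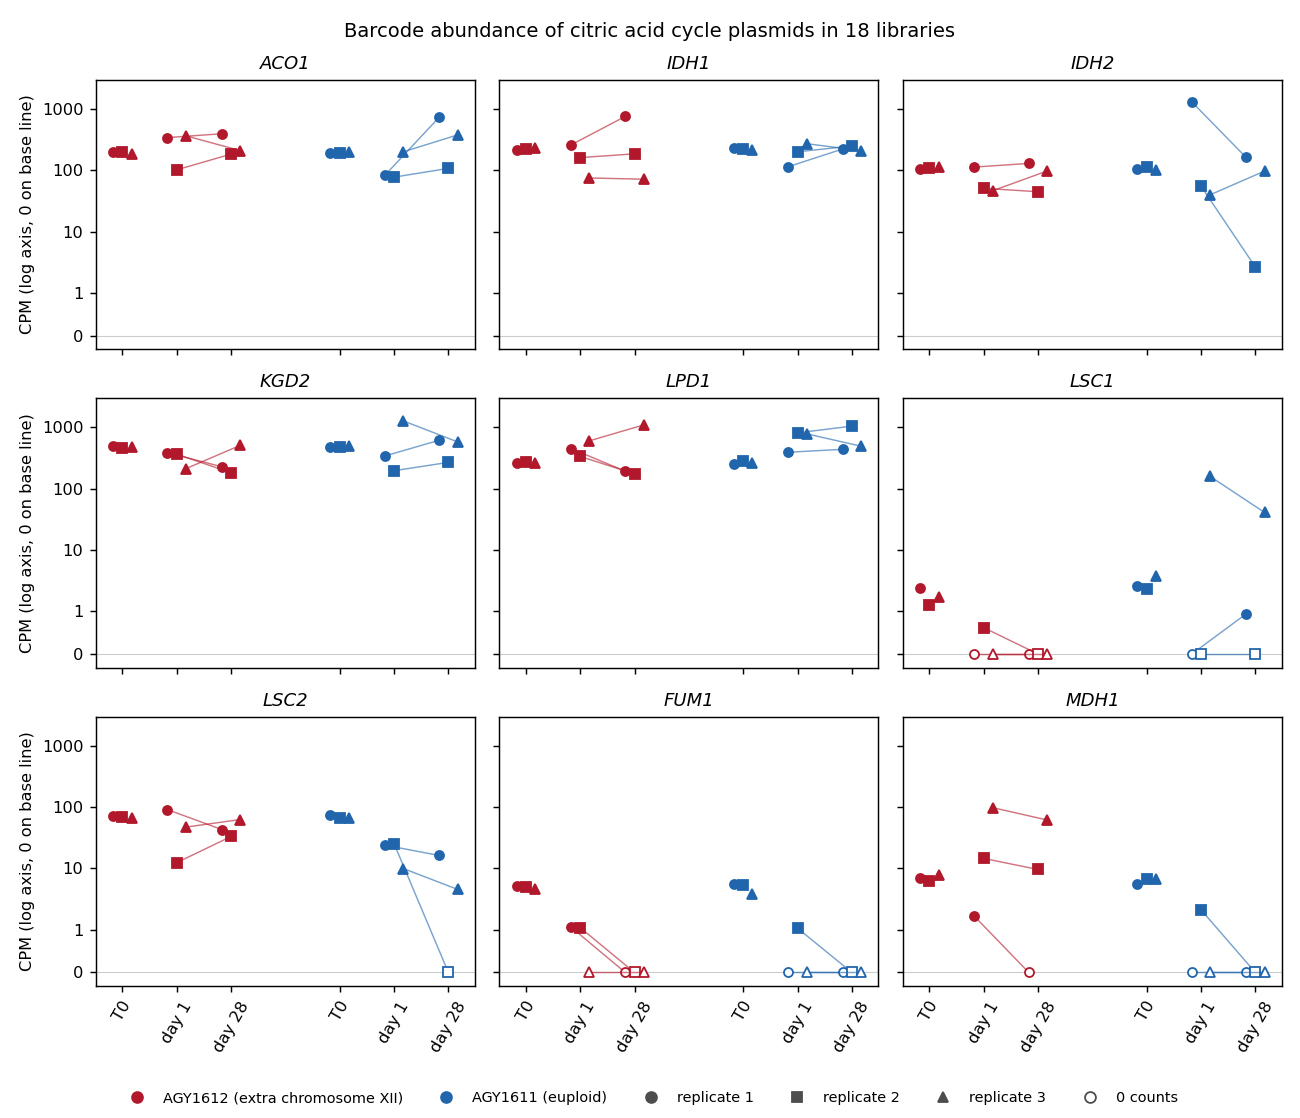
Barcode abundance of the 9 measured members in every library, in CPM on a log axis with 0 drawn on the base line. AGY1612 is red and AGY1611 blue, the symbol gives the replicate number, open symbols are 0 counts, and lines join the day 1 and day 28 libraries of a replicate number. T0 points of a strain lie close together, whereas day 28 points of IDH1 in AGY1612 span 71.4 to 755 CPM.

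The plasmids entered the cultures at very different levels. KGD2 had a mean of 484 CPM over the 6 T0 libraries and ranked at the 96.3 percentile of the 4786 plasmids with a count. LPD1 (265 CPM), IDH1 (222 CPM) and ACO1 (193 CPM) stood at percentiles 75.5, 64.5 and 56.4. IDH2 had 107 CPM and LSC2 69.4 CPM. MDH1, FUM1 and LSC1 were rare, at 6.72, 4.89 and 2.33 CPM and percentiles 6.39, 5.56 and 3.93. No tested member was called between the strains at T0. The log2(fold difference) of AGY1612 over AGY1611 at T0 was between -0.01 and 0.13, and no plasmid of the library was called in that comparison (0%). This edgeR test used the spread of all 18 libraries, and 0 of 4508 plasmids had an unadjusted p under 0.05. With only the compared groups fitted, 140 had one and 0 were called. The 0% therefore does not show that the starting pools were equal.

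Aconitase ACO1 (YLR304C) converts citrate to isocitrate and also helps to maintain mitochondrial DNA. Its gene lies on chromosome XII, so AGY1612 already held an extra chromosomal copy before the plasmid was added. In AGY1612, ACO1 had 202, 195 and 181 CPM at T0, 341, 101 and 364 CPM at day 1 and 394, 183 and 209 CPM at day 28. In AGY1611 the plasmid had 191, 190 and 201 CPM at T0, 82.5, 77.2 and 200.2 CPM at day 1 and 732, 107 and 377 CPM at day 28. In each strain 2 cultures were above and 1 below the T0 library of the same number at day 28. The groups overlapped in each strain. The log2(fold change) at day 28 over T0 was 0.44 ± 0.58 in AGY1612 (FDR = 0.654) and 1.06 ± 0.58 in AGY1611 (FDR = 0.271).

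ACO1 was the member with the lowest FDR for the change between day 1 and day 28. In AGY1612 the log2(fold change) of day 28 over day 1 was -0.04 ± 0.58, with cultures on both sides of 0. In AGY1611 it was 1.76 ± 0.60, and the plasmid was higher at day 28 in all 3 replicate numbers, but the FDR was 0.269. The strain difference in this later change was -1.80 ± 0.83 on the log2 scale (FDR = 0.592). Neither reached the threshold.

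IDH1 (YNL037C) and IDH2 (YOR136W) encode the subunits of the NAD-dependent isocitrate dehydrogenase, in which IDH2 is the catalytic and IDH1 the regulatory subunit. IDH1 had 755, 185 and 71.4 CPM at day 28 in AGY1612, against 212, 223 and 231 CPM at T0. AGY1611 cultures had 222, 249 and 209 CPM at day 28, against 226, 225 and 217 CPM at T0. The AGY1612 cultures thus ran apart by 10.6-fold at day 28, whereas those of AGY1611 were then within 1.19-fold of each other and near T0. At day 1 both strains were spread. AGY1612 had 259, 161 and 74.8 CPM, a 3.46-fold range in the same order of replicate numbers as at day 28. AGY1611 had 114, 200 and 271 CPM at day 1, a 2.37-fold range. Day 28 over T0 gave a log2(fold change) of 0.60 ± 0.60 (FDR = 0.549) in AGY1612 and 0.02 ± 0.60 in AGY1611. The SE rests on all 18 libraries, so it does not show the different spreads of these strains.

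The partner subunit did not follow IDH1 culture by culture. IDH2 had 129, 44.5 and 97.3 CPM at day 28 in AGY1612, against 104, 107 and 112 CPM at T0. AGY1611 cultures had 162, 2.64 and 96.9 CPM at day 28, against 104, 115 and 102 CPM at T0. Replicate 2 of AGY1611 held only 3 counts of IDH2 at day 28, and the groups overlapped in both strains. One day 1 library stood far from the rest: IDH2 had 1361 counts (1306 CPM) in AGY1611 replicate 1, against 55.0 and 39.8 CPM in the other 2 cultures. That plasmid was at 162 CPM in the same replicate number at day 28. Over the 3 cultures the log2(fold change) of day 28 over day 1 was -2.42 ± 1.05 in AGY1611 (FDR = 0.447). The log2(fold change) at day 28 over T0 was -0.26 ± 1.01 in AGY1612 (FDR = 0.889) and -0.30 ± 1.00 in AGY1611 (FDR = 0.884).

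KGD2 (YDR148C) encodes the dihydrolipoyl transsuccinylase core of the 2-oxoglutarate dehydrogenase complex, which makes succinyl-CoA. Its day 28 levels were 228, 182 and 510 CPM in AGY1612, against 502, 467 and 475 CPM at T0. In AGY1611 they were 618, 269 and 580 CPM at day 28, against 485, 484 and 490 CPM at T0. Cultures lay on both sides of T0 in each strain. The log2(fold change) was -0.65 ± 0.52 in AGY1612 (FDR = 0.44) and 0.01 ± 0.52 in AGY1611 (FDR = 0.992). At day 1, KGD2 in AGY1612 was at 387, 366 and 212 CPM, below all 3 of its T0 libraries, and in AGY1611 at 342, 197 and 1278 CPM, which overlapped T0.

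LPD1 (YFL018C) encodes dihydrolipoamide dehydrogenase, the component that reoxidises the lipoyl arm and is shared with pyruvate dehydrogenase and the glycine cleavage system. It was the member that was most often above its starting level. In AGY1612 it had 265, 268 and 261 CPM at T0, 452, 336 and 604 CPM at day 1 and 193, 175 and 1100 CPM at day 28. In AGY1611 it had 252, 283 and 262 CPM at T0, 393, 816 and 785 CPM at day 1 and 439, 1049 and 494 CPM at day 28. All 6 day 1 libraries exceeded all 6 T0 libraries, and at day 28 4 of 6 did so. The 2 day 28 libraries that did not were replicates 1 and 2 of AGY1612, which were below T0. Within AGY1612, 17.3% of plasmids with a count had all day 1 libraries above all T0 libraries, and within AGY1611 12.6% did. The share of plasmids that did so over both strains together was not counted, so how unusual LPD1 is in this cannot be said.

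None of these LPD1 changes passed the threshold. The log2(fold change) at day 1 over T0 was 0.81 ± 0.52 in AGY1612 (FDR = 0.393) and 1.32 ± 0.53 in AGY1611 (FDR = 0.235). At day 28 over T0 it was 0.89 ± 0.53 in AGY1612 (FDR = 0.286) and 1.31 ± 0.53 in AGY1611 (FDR = 0.127). The AGY1612 value rested on replicate 3, without whose day 28 library it was -0.53. The AGY1611 value had an FDR of 0.0801 without replicate 3 in every group and of 0.528 without replicate 2. Day 28 over day 1 gave a log2(fold change) of 0.08 ± 0.52 in AGY1612 and -0.01 ± 0.52 in AGY1611. Single cultures moved in both directions. By replicate number their log2 ratios were -1.23, -0.94 and 0.86 in AGY1612 and 0.16, 0.36 and -0.67 in AGY1611. The strain difference in the day 28 change was -0.43 ± 0.74.

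LSC2 (YGR244C) and LSC1 (YOR142W) encode the beta and alpha subunits of succinyl-CoA ligase, the step of the cycle that forms ATP directly. LSC2 had 71.4, 70.3 and 65.5 CPM at T0 in AGY1612, 91.0, 12.4 and 47.3 CPM at day 1 and 43.1, 33.2 and 62.7 CPM at day 28. AGY1611 libraries had 75.4, 66.8 and 67.1 CPM at T0, 24.0, 25.4 and 9.95 CPM at day 1 and 16.3, 0 and 4.54 CPM at day 28. All 6 day 28 libraries lay below all 6 T0 libraries. At day 28 the strains did not overlap either, since the lowest AGY1612 library (33.2 CPM, 38 counts) was above the highest of AGY1611 (16.3 CPM, 18 counts). The latter held for 4.49% of plasmids with a count. Within AGY1612, 28.9% of these plasmids had all day 28 libraries below all T0 libraries, and within AGY1611 27.7% did. The share that did so over both strains together was not counted.

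In AGY1612 the LSC2 mean was 46.3 ± 15.0 CPM at day 28, against 69.1 ± 3.11 CPM at T0 (SD, n = 3 each), and the log2(fold change) of -0.58 ± 0.99 was not called (FDR = 0.741). In AGY1611 the mean was 6.93 ± 8.39 CPM at day 28, against 69.8 ± 4.87 CPM at T0. LSC2 fell there, with a log2(fold change) of -3.31 ± 1.10 (FDR = 0.0607). The strain difference in this change was 2.73 ± 1.44 on the log2 scale (FDR = 0.785), so a difference between the strains was not shown. Leaving out single libraries ended the AGY1611 call in 5 of 6 cases. The FDR was 0.12 without day 28 replicate 2, 0.129 without day 28 replicate 3, 0.147, 0.135 and 0.133 without T0 replicates 1, 2 and 3, and 0.0227 without day 28 replicate 1.

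LSC1 could not be tested, because it began at only 5 to 27 counts in each T0 library. In AGY1612 it had 13, 5 and 10 counts at T0, 0, 1 and 0 at day 1 and 0 in all 3 libraries at day 28. The T0 mean of 1.78 CPM was under the day 28 floor of 4.01 CPM, so a loss was not detectable at this depth. In AGY1611 it had 18, 16 and 27 counts at T0, 0, 0 and 143 at day 1 and 1, 0 and 27 at day 28. The AGY1611 replicate 3 libraries, with 158 CPM at day 1 and 40.9 CPM at day 28, therefore stood apart from the other 2 cultures, which held 0 or 1 count. LSC1 and LSC2 were both low or absent in AGY1611 replicate 2 at day 28, but LSC1 was high in replicate 3, where LSC2 held 3 counts.

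FUM1 (YPL262W) encodes fumarase, which hydrates fumarate to malate and is present in both the mitochondrion and the cytosol. In AGY1612 it had 28, 20 and 27 counts at T0, 2, 2 and 0 at day 1 and 0, 0 and 0 at day 28. In AGY1611 the plasmid had 39, 37 and 27 counts at T0, 0, 1 and 0 at day 1 and 0, 0 and 0 at day 28. The plasmid was thus at 0 to 2 counts in every library after T0. Against the mean floor of 3 counts per library, FUM1 was at least 1.23-fold lower at day 28 than at T0 in AGY1612 and at least 1.48-fold lower in AGY1611. The floor of AGY1612 day 28 replicate 1, 6.16 CPM, was above the highest FUM1 T0 library of that strain (5.11 CPM). That of AGY1611 day 28 replicate 3, 4.54 CPM, was above the lowest T0 library (3.77 CPM). These 0 counts alone therefore do not show a fall. With no filter on low counts, which brought it into the test, FUM1 was called lower in both strains (FDR = 0.0255 in AGY1612 and 0.0231 in AGY1611). That fit called 682 of 4786 plasmids lower in AGY1612 and 536 in AGY1611. Such a loss was not rare in the library: of the 4786 plasmids with a count, 4.85% were at 0 in all 6 day 28 libraries.

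MDH1 (YKL085W) encodes the mitochondrial malate dehydrogenase, which regenerates oxaloacetate. In AGY1612 it had 38, 25 and 46 counts at T0 (6.94, 6.30 and 7.81 CPM), 3, 27 and 114 at day 1 (1.66, 14.6 and 98.0 CPM) and 0, 11 and 57 at day 28 (0, 9.61 and 61.6 CPM). In AGY1611 it had 39, 48 and 49 counts at T0 (5.59, 6.83 and 6.84 CPM), 0, 2 and 0 at day 1 and 0, 0 and 0 at day 28. Replicates 2 and 3 of AGY1612 stood above every T0 library at both later times, whereas replicate 1 of AGY1612 and all AGY1611 cultures stood below.

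In AGY1612 the MDH1 mean was 23.7 ± 33.2 CPM at day 28, against 7.02 ± 0.757 CPM at T0 (SD, n = 3 each), and the log2(fold change) of 1.77 ± 1.41 was not called (FDR = 0.44). Without the day 28 library of replicate 3 that value was -0.41. MDH1 fell in AGY1611 (FDR = 0.0927), and against the floor it was at least 1.95-fold lower at day 28 than at T0. Plasmids at 0 in all 3 day 28 libraries made up 7.08% of those with a count in AGY1612 and 6.9% in AGY1611. The strain difference in the day 28 change had an FDR of 0.429, and that of the day 1 change an FDR of 0.998, so neither was called. The AGY1611 call did not hold when any 1 of the 6 AGY1611 T0 and day 28 libraries was left out, with FDR between 0.138 and 0.2.

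**Figure D2:**
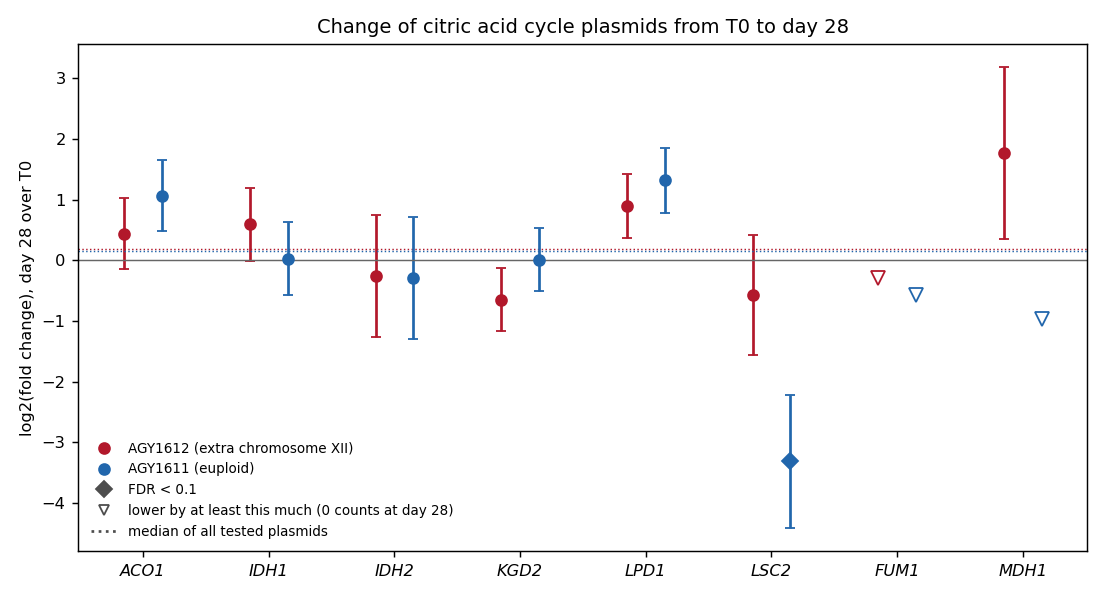
Log2(fold change) of day 28 over T0 for the 8 members with a fitted value or a bound, AGY1612 in red left of AGY1611 in blue, with bars for the SE. Diamonds passed FDR < 0.1, open triangles are plasmids with 0 counts in all 3 day 28 libraries drawn at the smallest fall that the floor of 3 counts allows (MDH1 in AGY1611 also passed FDR < 0.1), and dotted lines are the medians of all tested plasmids, 0.19 and 0.16. LSC2 in AGY1611 lies at -3.31.

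The members' calls at day 28 were read against those of the whole library. In AGY1612, 0 of 7 tested members had an unadjusted p under 0.05 in edgeR's fit, where 1228 of 4508 plasmids had one, and in AGY1611 3 of 7 did (LPD1, LSC2 and MDH1), where 1089 of 4508 did. DESeq2 also called no member in AGY1612. The members' median log2(fold change) was 0.44 in AGY1612 and 0.01 in AGY1611, beside medians of 0.19 and 0.16 over all 4508 plasmids. In each strain 4 of 7 members had a positive value, beside 56.3% of all plasmids in AGY1612 and 56.1% in AGY1611. With total counts in place of TMM factors the medians of all plasmids were -0.11 and -0.14, and those of the members 0.17 and -0.27.

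Counting libraries without a model gave a like picture. In AGY1612, LSC1, LSC2 and FUM1 of the 9 measured members had all 3 day 28 libraries below all 3 T0 libraries, and none had all 3 above, where 28.9% and 19.8% of plasmids with a count did so. LSC1 began under the floor of these libraries, so its 0 counts carry no information on a fall and LSC2 and FUM1 are left. FUM1 can be read only in part, since its T0 level was also under the floor of AGY1612 day 28 replicate 1. In AGY1611 its lowest T0 library was under the floor of day 28 replicate 3. In AGY1611, LSC2, FUM1 and MDH1 had all 3 below and LPD1 all 3 above, where the library had 27.7% and 19.6%. Between the strains at day 28, LSC2 alone of the 9 had all AGY1612 libraries above all AGY1611 libraries and none had them all below, where 4.49% and 6.37% of the library did.

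Part of these positions was already present at day 1. In AGY1612, LPD1 was above all T0 libraries at day 1 and KGD2, LSC1 and FUM1 below, where 17.3% and 27.5% of plasmids with a count were, and LSC1 again began too low to be read. In AGY1611, LPD1 was above and LSC2, FUM1 and MDH1 below, where 12.6% and 28.5% were. No member was called at day 1 over T0 in either strain, a comparison in which 2.86% of tested plasmids were called in AGY1612 and 0.288% in AGY1611. At an unadjusted p under 0.05, edgeR gave 0 members in AGY1612 and 1 in AGY1611, which was LPD1, where 947 and 743 of the 4508 plasmids passed.

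Between day 1 and day 28 no member was called either, where 1.53% of plasmids were called in AGY1612 and 0.954% in AGY1611. Samples of these times that share a replicate number within a strain deviated together, so the replicate number was also fitted as a block, which left 0 members called in both strains. At an unadjusted p under 0.05, edgeR without the block gave 0 members in AGY1612 and 2 in AGY1611, ACO1 and IDH2, where 513 and 429 of the 4508 plasmids passed. The tests of the strain difference called 0 members for the day 28 change, the day 1 change and the change after day 1, where they called 0.266%, 0% and 0.222% of all plasmids. At an unadjusted p under 0.05 each of these 3 edgeR tests gave 1 member, MDH1 for the first pair and ACO1 for the change after day 1. Of all 4508 plasmids, 313, 172 and 364 passed in these tests, taken in the same sequence.

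Over the 18 libraries, log2 CPM of IDH1 and IDH2 had a Pearson correlation of -0.10 and that of KGD2 and LPD1 one of 0.13. The 21 pairs of tested members had Pearson correlations of log2 CPM with a median of -0.05, the lowest being -0.63 for IDH1 with MDH1 and the highest 0.59 for IDH2 with LSC2. These libraries share 6 T0 samples and paired cultures, so the correlations describe these 18 libraries only. The summed abundance of the 9 members was 1339 to 1378 CPM in the 6 T0 libraries. It was 1743, 812 and 2112 CPM at day 28 in AGY1612 and 2190, 1676 and 1802 CPM in AGY1611, where KGD2, LPD1, ACO1 and IDH1 made up most of it.

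The plasmids whose abundance followed that of the 2 called members most closely came from elsewhere in the genome. Among 4501 other tested plasmids, LSC2 was most like the second entry of YHC3 (r = 0.93), PAM1 (r = 0.93) and the second entry of YBR062C (r = 0.87). MDH1 was most like NSP1 (r = 0.84), MRPL4 (r = 0.82) and RRD1 (r = 0.81). These values are Pearson correlations of log2 CPM over 18 libraries and were taken from the top of a large ranking.

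The wider pathway was read from a list of 60 other genes, covering isozymes and remaining steps of the cycle, assembly of succinate dehydrogenase, pyruvate dehydrogenase, lipoic acid attachment, anaplerosis and the glyoxylate cycle, mitochondrial carriers and regulators. Of these, 57 had a row and 55 plasmids were tested. In AGY1612, 1 of 55 was higher at day 28 over T0 and 4 were lower, or 1.82% and 7.27%. In AGY1611, 3 were higher and 2 lower, or 5.45% and 3.64%. The higher calls in AGY1611 depended on the scaling, with 0 higher and 3 lower under total counts and 1 higher and 2 lower under RLE factors. The median log2(fold change) was 0.18 and 0.12. These shares were no higher than those of the library apart from the 5.45% against 5.12%, and no listed gene was called for a strain difference.

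**Figure D3:**
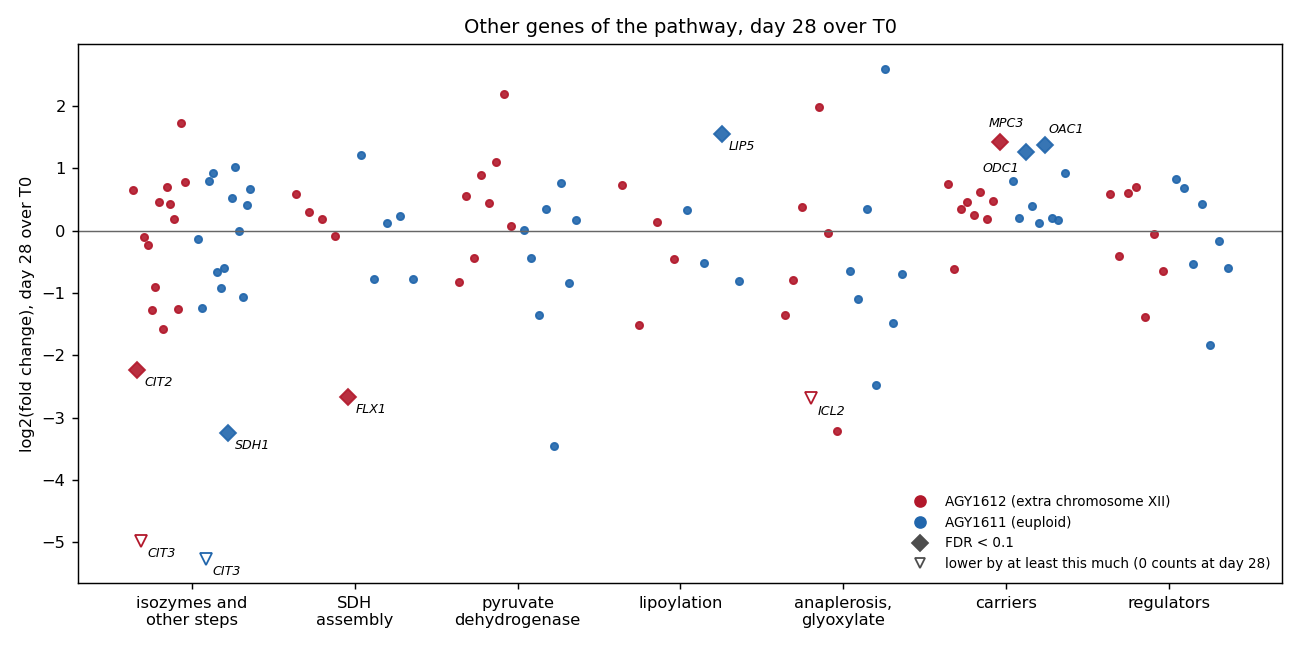
Log2(fold change) of day 28 over T0 for the 55 tested plasmids of the pathway list, by class, AGY1612 in red left of AGY1611 in blue. Diamonds passed FDR < 0.1 and open triangles passed it with 0 counts in all 3 day 28 libraries, drawn at the smallest fall the floor allows. CIT3 is low in both strains. The called carriers lie above 0, MPC3 called in AGY1612 only and ODC1 and OAC1 in AGY1611 only. Over all tested plasmids 6.99% were called higher in AGY1612 and 5.12% in AGY1611.

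Of the citrate synthase plasmids, CIT3 was called lower in both strains, CIT2 in AGY1612 only and CIT1 in neither. Over all tested plasmids, 12.9% were called lower in AGY1612 and 9.49% in AGY1611. Of plasmids with a count, 4.85% were at 0 in all 6 day 28 libraries. CIT3, the minor mitochondrial citrate synthase that also acts on propionyl-CoA, had 0 counts in all 6 day 28 libraries, against 531 to 722 counts at T0 in AGY1612 and 871 to 921 in AGY1611. It fell in both strains, by at least 31.4-fold in AGY1612 (FDR = 0.0028) and at least 38.5-fold in AGY1611 (FDR = 0.00268). At day 1 it still had 35, 43 and 0 counts in AGY1612 and 24, 34 and 3 in AGY1611, and in AGY1611 it was also called lower at day 28 than at day 1 (FDR = 0.0828). CIT2, the peroxisomal citrate synthase, had 28.7, 41.0 and 98.4 CPM at day 28 in AGY1612, against 272, 253 and 271 CPM at T0. It fell there by 2.23 ± 0.55 on the log2 scale (FDR = 0.012), and its change of -1.24 ± 0.53 in AGY1611 was not called. The main mitochondrial citrate synthase CIT1 changed by 0.65 ± 0.77 in AGY1612 and -0.14 ± 0.77 in AGY1611, with neither called.

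The step between succinate and fumarate, which is not among the 9 members, held the other called subunit. SDH1, the flavoprotein of succinate dehydrogenase, had 154, 6.11 and 58.4 CPM at day 28 in AGY1612, against 156, 241 and 246 CPM at T0, and the change of -1.58 ± 0.92 was not called. AGY1611 libraries had 5.42, 23.7 and 48.5 CPM at day 28, against 228, 249 and 245 CPM at T0. The plasmid fell there, with a log2(fold change) of -3.24 ± 0.98 (FDR = 0.0406). Values for the other subunits, none called, were 0.71 and 0.52 for SDH2, 0.43 and 1.03 for SDH3 and 0.19 and -0.01 for SDH4, AGY1612 before AGY1611. FLX1, a mitochondrial FAD transporter on which Sdh1 depends, fell by 2.67 ± 0.81 in AGY1612 (FDR = 0.0338), with 55.4, 27.1 and 20.5 CPM at day 28, against 208, 213 and 224 CPM at T0. Its change of -0.78 ± 0.76 in AGY1611 was not called. Lower calls of the whole list depended on single replicate numbers. In AGY1612 they numbered 4, but 2, 1 and 5 without replicates 1, 2 and 3. In AGY1611 they numbered 2, but 1 without replicate 1, 2 or 3.

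Other isozymes and the KGD4 subunit, given here, were not called in either strain. For the isocitrate dehydrogenases that use NADP, the log2(fold change) in AGY1612 and in AGY1611 was -0.24 and 0.93 for mitochondrial IDP1, -1.27 and -0.66 for cytosolic IDP2 and -0.91 and -0.93 for peroxisomal IDP3. KGD4, the subunit that tethers the lipoamide dehydrogenase to 2-oxoglutarate dehydrogenase, gave 0.47 and -0.60. Cytosolic MDH2 gave 1.72 and 0.41, peroxisomal MDH3 0.78 and 0.67, and the SDH4 paralog SHH4 -1.26 and -1.06. SHH3, the paralog of SDH3, was too rare to be tested.

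The other called plasmids of the list were carriers, 1 lipoylation gene, 1 gene of the methylcitrate cycle and 1 regulator. MPC3, a subunit of the mitochondrial pyruvate carrier, rose in AGY1612 by 1.42 ± 0.38 on the log2 scale (FDR = 0.0172), with 1229, 992 and 1139 CPM at day 28, against 404, 419 and 428 CPM at T0. Its change of 0.92 ± 0.37 in AGY1611 was not called (FDR = 0.131). In AGY1611, the 2-oxodicarboxylate carrier ODC1 (1.27 ± 0.37, FDR = 0.034), the oxaloacetate carrier OAC1 (1.37 ± 0.44, FDR = 0.0526) and the lipoic acid synthase LIP5 (1.55 ± 0.53, FDR = 0.0664) rose. All 3 day 28 libraries of each were above its T0 libraries, the smallest margin being 428 against 347 CPM for ODC1. The same was true of 19.6% of plasmids with a count. These libraries also gave the calls, so the lack of overlap adds no separate evidence. In AGY1612, ODC1, OAC1 and LIP5 gave 0.35, 0.63 and 0.14, none of them called. No higher call was left in AGY1611 under total counts, without any 1 of its T0 libraries or without replicate 2, and 1 was left under RLE factors, at FDR < 0.05 and without replicate 1 or 3. MPC3 was not called in AGY1612 without replicate 1. ICL2, the 2-methylisocitrate lyase, had 0 counts in all 3 AGY1612 libraries at day 28, against 98 to 178 at T0, and fell there by at least 6.47-fold (FDR = 0.0121). In AGY1611 it had 0 to 7 counts at day 28, and its change of -2.48 ± 1.27 was not called (FDR = 0.237). The first of 2 plasmid entries of HAP2, a subunit of the activator of respiratory genes, was higher at day 28 than at day 1 in AGY1612 (1.34 ± 0.33, FDR = 0.0518), with 989, 538 and 477 CPM at day 28, against 186, 273 and 329 CPM at day 1. At day 28 over T0 this entry gave 0.70 in AGY1612 and 0.42 in AGY1611 and the second entry -1.38 and -1.84, none of them called. The first entry had a mean of 410 CPM at T0 in AGY1612. There the second entry had means of 77.0 CPM at day 1 and 76.1 CPM at day 28.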

How the data were processed

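Barcodes of MoBY plasmids were counted in 18 libraries of AGY1612 and AGY1611. The deposited values are raw counts per plasmid, which the authors made from barcode reads and normalized by TMM in edgeR at a later step that is not applied in the table. The counting program and the genome build are not given in the sources used here, so no coordinates are printed. Ploidy comes from the study's methods and the series design, as the sample labels give strain numbers only. All sample columns were used. Of 4872 rows, 86 had no count, 4865 matched a RefSeq locus tag of the S288C assembly, and the empty vector took 0 to 0.0296% of a library's counts.

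Tests used edgeR 4.0.16 in R 4.3.3 (filterByExpr by group, TMM factors, 1 coefficient per group over 18 libraries, glmQLFit and glmQLFTest, two-sided, FDR < 0.1). The SE is the log2(fold change) divided by the square root of F. Log2 CPM for correlations used a prior count of 2. A plasmid at 0 in a group was compared with a floor of 3 counts, as the mean CPM of that floor over the group's libraries. The scripts were tested on simulated data with the same spread in every group. These draws do not cover the closer T0 libraries and wider later libraries of the real data. The members, the list of 60 pathway genes, the tests and the alternatives were chosen with earlier results of these data known. All members are named, and of the pathway list the genes past FDR < 0.1 in any comparison and all isozymes and missing steps of the cycle, plus the 3 plasmids most correlated with each called member. 1 gene of the pathway list is not reported here. Where nothing says otherwise, replicates are taken as the separate cultures of the design text.

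Alternatives were RLE factors or total counts, other filters, DESeq2 1.42.0, voom of limma 3.58.1 with group weights, a replicate block, fits of each strain or of the compared groups only, FDR < 0.05, and left-out replicates. Left-out single libraries were added after seeing the data. Replicate numbers come from the sample titles. Deviations from group means of same-numbered day 1 and day 28 libraries of a strain correlated at 0.22 on average in AGY1612 (0.15 to 0.32) and 0.43 in AGY1611 (0.33 to 0.50), so the numbers pair these. T0 libraries did not pair with later ones, with means between -0.02 and 0.06. Figures were drawn with matplotlib 3.10.9.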

Additional observations from a re-analysis of the deposited data

How the results depend on the processing

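Of the 2 calls among members, LSC2 in AGY1611 passed its threshold in 9 of 20 alternatives (FDR 0.00232 to 0.248) and kept a negative value in all, and MDH1 in AGY1611 passed in 9 of 20 (FDR 0.0106 to 0.378). LPD1 in AGY1611, not called above, passed in 6 of 20 (FDR 0.0376 to 0.528). The number of members called at day 28 in AGY1611 was 2, with 1 under at least 10 counts in 9 libraries (LSC2), 0 at FDR < 0.05, and 0 to 2 without single replicates or libraries. It was 3 without a filter, where FUM1 was added, and 3 in voom and with the block within strain, where LPD1 was added as higher. With the strain fitted alone and with only the compared groups, the 2 were LPD1, higher, and MDH1, lower, and LSC2 was not called. In AGY1612 the number was 0, and 1 (FUM1) without a filter. At day 1, LPD1 alone was called when only the compared groups were fitted (1 member in AGY1612 and 1 in AGY1611) and in voom (1 in AGY1611). The replicate block, whose numbers do not pair T0 with day 28, gave LSC2 in AGY1611 -3.70 over both strains (FDR = 0.0461) and -3.75 within strain (FDR = 0.0556), and added LPD1 within strain (1.20, FDR = 0.0783). No member changed its call between day 1 and day 28 under the block, while the calls over all plasmids in AGY1611 were 25 with it and 43 without.

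Of the pathway list, 5 plasmids were called in AGY1612, with 11 in voom, 8 with the block within strain, 10 with only the compared groups and 2 to 9 without single replicates or libraries. In AGY1611, 5 were called, with 3 under RLE factors (1 higher, 2 lower), 3 under total counts (0 higher, 3 lower), 12 in voom, 8 with the strain alone, 9 with only the compared groups, 3 at FDR < 0.05 and 1 to 9 without single replicates or libraries.

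Some values changed sign, none of them called. IDH1 in AGY1612 was -0.34 in voom and -0.056 with the block within strain, where MDH1 was -0.12. The strain difference of IDH1 was -0.38 and -0.079 in the same settings. In AGY1611, IDH1 was -0.16 under RLE factors, -0.27 under total counts, -0.13 without a filter, -0.16 in DESeq2 and -0.14 with only the compared groups. KGD2 there was -0.17, -0.27, -0.14, -0.17 and -0.14 in these settings, -0.13 in voom, and -0.077 and -0.14 with the block over both strains and within strain. Without single replicates or libraries, AGY1612 values ran from -0.82 to 1.25 for IDH1, -0.63 to 0.074 for IDH2, -0.53 to 1.30 for LPD1 and -0.41 to 2.33 for MDH1. AGY1611 values ran from -0.047 to 0.17 for IDH1, -1.14 to 0.33 for IDH2 and -0.20 to 0.30 for KGD2. Strain differences ran from -0.87 to 1.08 for IDH1, -0.26 to 0.51 for IDH2 and -1.99 to 0.44 for LPD1. The cause was not tested.

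Over all plasmids, higher and lower calls at day 28 numbered 315 and 583 in AGY1612 and 231 and 428 in AGY1611 with TMM factors, 202 and 620, and 113 and 453, with RLE factors, and 117 and 672, and 70 and 485, with total counts. The total was 595 at FDR < 0.05 in AGY1612 and 420 in AGY1611, and 1072 in voom in AGY1611. Without single replicate numbers it reached as low as 211 in AGY1612 and 156 in AGY1611. At day 1 it was 129 in AGY1612 and 13 in AGY1611, against 513 and 333 in DESeq2, 925 and 358 in voom, 1198 and 687 with only the compared groups, and 0, and 0 to 2, without single replicate numbers. LSC1, FUM1 and MDH1 began at under 50 counts per T0 library, so depth limits what their later counts can show.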
